A study of Mus musculus with 12 samples.

Results

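The comparison described here is the late step of a chemical treatment of mouse embryonic fibroblasts (MEFs), with SGCF day 10 set against SGCF day 5. Its arrays were chosen by the sample titles and are 4 of the 12 arrays of the series, 2 at day 10 and 2 at day 5. SGCF is a code name for a chemical combination, and the sources used here state neither what it holds nor the strain, genotype or age of the embryos. Gene expression was measured on Affymetrix GeneChip mouse arrays, and a level here is a log2 value of the deposited intensity plus 16 after quantile normalization. The groups used are SGCF day 10 and SGCF day 5, then 6TCF day 10 and 6TCF day 5, which are MEFs under another code-named combination, and SGCF day 0 and 6TCF day 0, the starting points of the arms, with 2 arrays each. MEFs of every group were plated, per the labels, in medium with 10% fetal bovine serum and moved the next day to a medium with 15% serum and basic fibroblast growth factor. The labels do not say whether the day 0 arrays come from before that move. No untreated or vehicle-treated cultures are labelled at day 5 or day 10, so SGCF and time in culture cannot be told apart. Nothing says that the 2 arrays of a group are separate embryos or cultures, and the spread behind the p-values may be technical.

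Fibroblasts secrete and remodel the extracellular matrix of connective tissue: fibrillar collagens, the small leucine-rich proteoglycans that coat them, elastic fibres, and the proteases that turn these over. In culture they also divide, and the genes of DNA replication and of mitosis are switched on and off together with the cell cycle by E2F factors and by the DREAM and MuvB complexes at their promoters. Neurofilaments, neuronal pentraxins and synaptic proteins are made by neurons and are normally low in fibroblasts. Proteins of the complement system, acute-phase proteins and chemokines are made by fibroblasts, among other cells, during inflammation.

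The late step changed the levels of many genes on the same 4 arrays. Of 10674 genes tested, 1254 (11.7%) were called higher at day 10 than at day 5 and 1064 (9.97%) lower, at a Benjamini-Hochberg adjusted p under 0.05 from limma. Of these, 340 rose and 219 fell at least 2-fold, and at each of the 2318 called genes the 2 arrays of day 10 lay on one side of the 2 arrays of day 5. The share of all genes tested without such overlap was not counted, so this separation adds nothing to the calls. The median change over all genes tested was -0.0039, and 3698 genes had an unadjusted p under 0.05. With median centring in place of quantile normalization the median change was -0.0751, and the split was 885 higher and 1231 lower, so 41.8% of the called genes were higher in place of 54.1%. With each of the 4 arrays left out in turn, 1370 to 1634 genes were called, the fewest without day 10 replicate 2. Each change below is a log2 change with its standard error (SE, n = 2 arrays per group), and p-values are adjusted over all 10674 genes. Across genes, which are not independent replicates, the day 10 arrays correlated at r = 0.993 with each other, the day 5 arrays at 0.992, and a day 10 array with a day 5 array at 0.962 to 0.969. Median deposited intensities were 62.3 and 71.0 at day 10 and 60.9 and 61.6 at day 5. As a sign of RNA integrity, the 3' control probe set of actin minus the 5' one, on the log2 scale, was 0.46 and 0.47 at day 10 and 0.48 and 0.42 at day 5. The number of arrays limits the precision.

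The cells kept the markers of fibroblasts at both times. Of 21 tested fibroblast identity genes, 11 rose (52.4%), 3 fell (14.3%) and 7 were not called, with a median of 0.47. Over all genes tested, 11.7% rose and 9.97% fell. The summed level of the fibroblast identity genes on the linear scale was 106637 to 107175 at day 10 and 78225 to 85096 at day 5. Col1a2, a chain of type I collagen, had levels of 13.79 and 13.82 at day 10 and 13.18 and 13.30 at day 5. The platelet-derived growth factor receptor gene Pdgfra, which marks connective-tissue fibroblasts, rose by 1.45 ± 0.20 (adjusted p = 0.000298). Vim, the intermediate filament gene of mesenchymal cells, changed by -0.37 ± 0.15 (adjusted p = 0.0901) and was not called. Vim was called lower with its probe sets averaged (-0.48, adjusted p = 0.00775), with a mean-variance trend (-0.37, adjusted p = 0.0288) and with median centring (-0.56, adjusted p = 0.0149). Cd34, a surface marker of adventitial fibroblasts and other progenitors, fell by 0.94 ± 0.14.

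The largest rise was in Ogn, which encodes osteoglycin, a small leucine-rich proteoglycan of the matrix. Its levels were 11.15 and 11.89 at day 10 and 7.57 and 7.78 at day 5, a 14.4-fold rise (3.85 ± 0.24, adjusted p = 7.86e-07). Egfl6, a secreted matrix protein with EGF-like repeats, had levels of 8.39 and 9.10 at day 10 and 4.66 and 5.28 at day 5. For both genes the lower day 10 array lay above the higher day 5 array by more than the distance between replicates. Both were chosen as large rises among genes without overlap between the days. Egfl6 rose by 3.77 ± 0.27. C1s1 and C1ra, which encode the serine proteases of the first complement component, rose by 3.76 ± 0.16 and 3.41 ± 0.16. Hsd11b1, whose enzyme regenerates active glucocorticoid inside cells, had levels of 10.00 and 10.11 at day 10 and 6.42 and 6.21 at day 5 and rose by 3.74 ± 0.16 (adjusted p = 5.44e-08). The other rises among the first 15 were Igf1, Kera, Tgm2, Adamts1, Tgfb2, Spon1, Steap4, Mmp13, Enpep and Aspn, from 3.52 for Igf1 to 3.17 for Aspn. Spon1 encodes a secreted matrix adhesion protein (3.29 ± 0.16), Steap4 a metalloreductase of the cell membrane (3.20 ± 0.19) and Enpep an aminopeptidase that trims angiotensin (3.18 ± 0.21).

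The largest fall was in Nptx1, the gene of a secreted pentraxin found at synapses. It had levels of 7.22 and 5.95 at day 10 and 10.49 and 10.54 at day 5, a 15.3-fold fall (change -3.93 ± 0.32, adjusted p = 7.09e-06). The 2 day 10 arrays differed by more than a unit, but both lay over 3 units below the day 5 arrays. Nefl, which encodes the light neurofilament chain, had levels of 7.03 and 6.06 at day 10 and 9.85 and 10.02 at day 5 and fell by 3.39 ± 0.39 (adjusted p = 9.19e-05). Chrna1, the alpha subunit of the muscle acetylcholine receptor, had levels of 6.20 and 5.67 at day 10 and 8.82 and 8.77 at day 5 and fell by 2.86 ± 0.26. Lrrn1, a leucine-rich repeat membrane protein of neural tissue, fell by 2.55 ± 0.23, and Prkg2, a cGMP-dependent protein kinase, fell by 2.43 ± 0.16. Gch1, whose enzyme starts the synthesis of tetrahydrobiopterin, fell by 2.43 ± 0.28, and Upp1, a uridine phosphorylase, fell by 2.38 ± 0.18. The remaining falls among the first 15 were Evi2a, Serpinb2, Esm1, Itga6, Dusp9, Cyp1a1, E2f8 and Nefm, from -2.43 for Evi2a to -2.07 for Nefm. Of these, Cyp1a1, a monooxygenase gene switched on by the aryl hydrocarbon receptor, had levels of 5.10 and 4.87 at day 10 and 7.06 and 7.28 at day 5, and Itga6, a laminin receptor subunit, had 8.36 and 7.80 at day 10 and 10.33 and 10.35 at day 5.

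**Figure D1:**
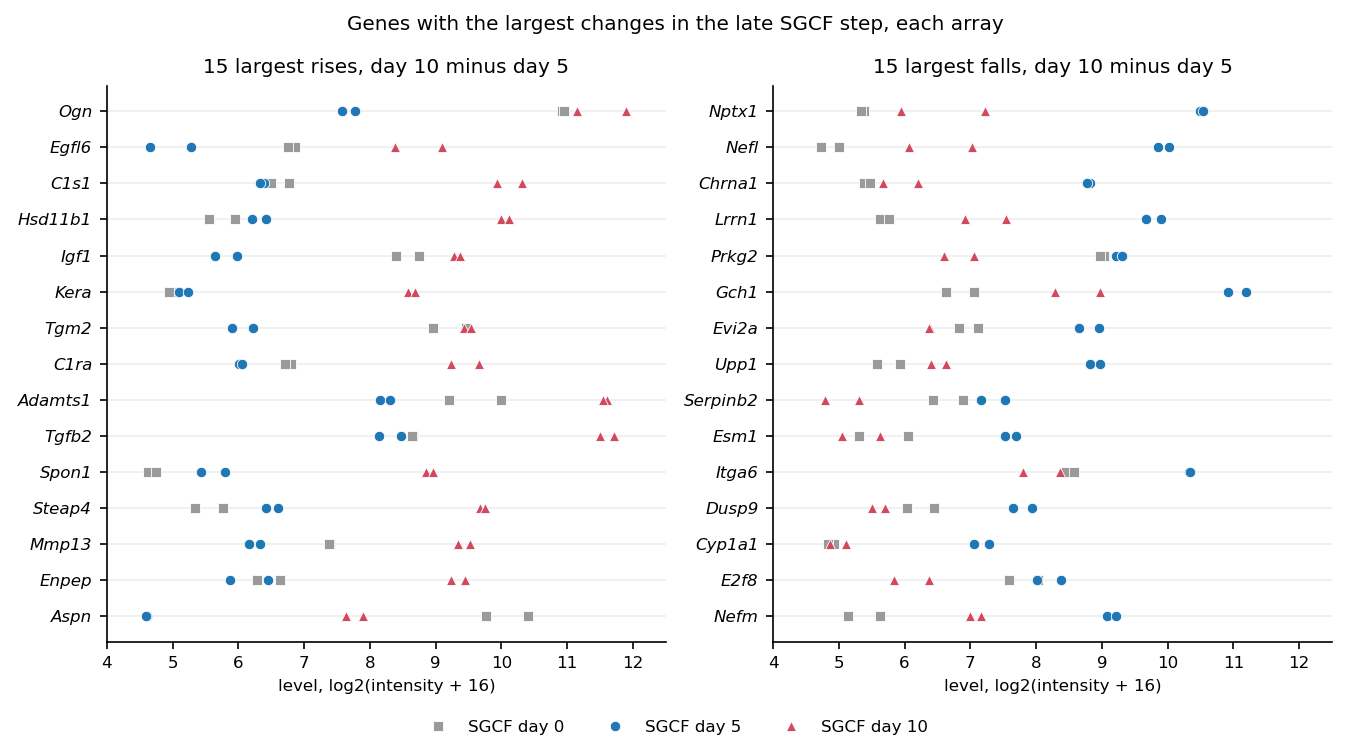
Levels on each SGCF array (x axis, log2 of intensity plus 16) of the 15 genes with the largest rises (left) and the 15 with the largest falls (right) in the step from day 5 to day 10. Squares are day 0, circles day 5 and triangles day 10. Only genes without overlap between days 5 and 10 were eligible, so in every row both triangles lie on one side of both circles.

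Many matrix genes rose at day 10. Of 32 tested genes for proteoglycans, elastic fibres and matricellular proteins, 21 rose and the other 11 were not called, with a median of 0.71. Fewer than 21 rose with any of the 4 arrays left out. Among 25 collagen chains 9 rose, 1 fell (1 to 2 with each of the 4 arrays left out in turn) and 15 were not called (median 0.42). Among 15 genes of collagen processing and crosslinking 5 rose (3 to 4 with each of the 4 arrays left out in turn), 1 fell and 9 were not called (median 0.25). Among 22 matrix proteases and inhibitors 9 rose, 4 fell and 9 were not called (median 0.30). These shares stand beside 11.7% higher and 9.97% lower over all genes tested.

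Ogn was joined by other small leucine-rich proteoglycans, which bind collagen and set the width of its fibrils. Kera, which encodes keratocan, had levels of 8.58 and 8.69 at day 10 and 5.10 and 5.23 at day 5 (3.47 ± 0.15, adjusted p = 5.44e-08). Aspn, which encodes asporin, had levels of 7.64 and 7.90 at day 10 and 4.61 and 4.59 at day 5 (3.17 ± 0.38, adjusted p = 0.000113). In neither gene did the groups overlap, which was a condition for choosing them. Lum (lumican) rose by 0.80 ± 0.15 and Dcn (decorin) by 0.71 ± 0.13. Postn, which encodes periostin, a matricellular protein that links collagen and fibronectin, had levels of 11.78 and 11.76 at day 10 and 9.16 and 9.48 at day 5 and rose by 2.45 ± 0.13 (adjusted p = 2.44e-07). Nid2, a basement membrane nidogen, rose by 2.33 ± 0.18, and Mfap4, a protein of elastic fibres, by 2.10 ± 0.14. Dpt, which encodes dermatopontin, rose by 1.59 ± 0.18, Tgfbi, a matrix adhesion protein induced by TGF-beta, by 1.45 ± 0.18, and Fbln5, an elastic fibre fibulin, by 1.26 ± 0.14. Eln, the elastin gene itself, rose by 0.96 ± 0.14 but was not called with its probe sets averaged (0.41, adjusted p = 0.0732), while Fn1, the fibronectin gene, changed by 0.10 ± 0.24 (adjusted p = 0.805) and was not called.

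Collagens of several kinds rose. Col5a2, a chain of type V collagen, which starts fibrils of type I, had levels of 12.87 and 12.88 at day 10 and 11.01 and 11.24 at day 5 (1.75 ± 0.16, adjusted p = 1.76e-05). Col15a1, a collagen of basement membrane zones, rose by 1.42 ± 0.22, Col12a1, a fibril-associated chain, by 1.10 ± 0.21, Col5a1 by 1.02 ± 0.22 (without day 5 replicate 1, 0.75, adjusted p = 0.0687), and Col3a1, the type III chain, by 0.87 ± 0.14. Col1a2 rose by 0.56 ± 0.11, whereas its partner in type I collagen, Col1a1, changed by 0.37 ± 0.16 (adjusted p = 0.126) and was not called. Col1a1 was called higher without day 10 replicate 1 (0.64, adjusted p = 0.0151) and with its probe sets averaged (0.84, adjusted p = 0.00658). Col7a1, the anchoring fibril collagen, was the member that fell, by 0.71 ± 0.18, a call lost without day 10 replicate 1 (-0.59, adjusted p = 0.11) or day 5 replicate 2 (-0.51, adjusted p = 0.131). Lox, whose enzyme crosslinks collagen and elastin, had levels of 10.92 and 11.49 at day 10 and 8.83 and 9.01 at day 5 and rose by 2.29 ± 0.18 (adjusted p = 5.73e-06). Pcolce2, an enhancer of procollagen processing, fell by 1.54 ± 0.14, while its relative Pcolce rose by 0.68 ± 0.13. Tgm2, a transglutaminase that crosslinks matrix proteins, had levels of 9.43 and 9.54 at day 10 and 6.22 and 5.91 at day 5 (3.42 ± 0.16, adjusted p = 1.11e-07).

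The proteases that act on matrix divided. Adamts1, a protease of the proteoglycan versican, had levels of 11.61 and 11.55 at day 10 and 8.15 and 8.30 at day 5 (3.35 ± 0.21, adjusted p = 1.13e-06), and Mmp13, a collagenase, had 9.34 and 9.52 at day 10 and 6.15 and 6.33 at day 5 (3.19 ± 0.14, adjusted p = 5.44e-08). Adamts5, an aggrecanase, rose by 3.11 ± 0.19 and the gelatinase gene Mmp2 by 1.40 ± 0.21. In these 4 genes both day 10 arrays lay above both day 5 arrays, as at every gene called higher. The stromelysin genes went the other way: Mmp10 had levels of 7.70 and 7.56 at day 10 and 9.76 and 9.56 at day 5 and fell by 2.03 ± 0.22, and Mmp3 fell by 0.98 ± 0.16. Plau, the urokinase activator of plasminogen, fell by 1.23 ± 0.12, and Serpinb2, an inhibitor of that activator, fell by 2.30 ± 0.24. Of the tissue inhibitors of metalloproteinases, Timp3 rose by 0.72 ± 0.15 and Timp1 changed by -0.37 ± 0.15 (adjusted p = 0.0971), which was not called except with median centring (-0.58, adjusted p = 0.011) and with a mean-variance trend (-0.37, adjusted p = 0.0438).

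Genes of TGF-beta signalling and the contractile apparatus rose in part. Of 26 tested, 8 rose (30.8%, beside 11.7% over all genes tested) and the other 18 were not called, with a median of 0.24. The ligand gene Tgfb2 had levels of 11.51 and 11.71 at day 10 and 8.14 and 8.48 at day 5, a 9.85-fold rise (3.30 ± 0.14, adjusted p = 5.44e-08). Its relative Tgfb3 rose by 0.98 ± 0.17, and Tgfb1 changed by -0.46 ± 0.22 (adjusted p = 0.156) and was called lower only without day 5 replicate 1 (-0.81, adjusted p = 0.0254). Acta2, the smooth muscle actin of myofibroblasts, rose by 1.05 ± 0.13, the myosin light chain kinase gene Mylk by 1.41 ± 0.16, and Cnn1, which encodes calponin, by 0.88 ± 0.12. Ccn2, the connective tissue growth factor that TGF-beta induces, had levels of 9.65 and 9.60 at day 10 and 9.65 and 9.61 at day 5, a change of -0.01 ± 0.13 (adjusted p = 0.973), and the groups overlapped.

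**Figure D2:**
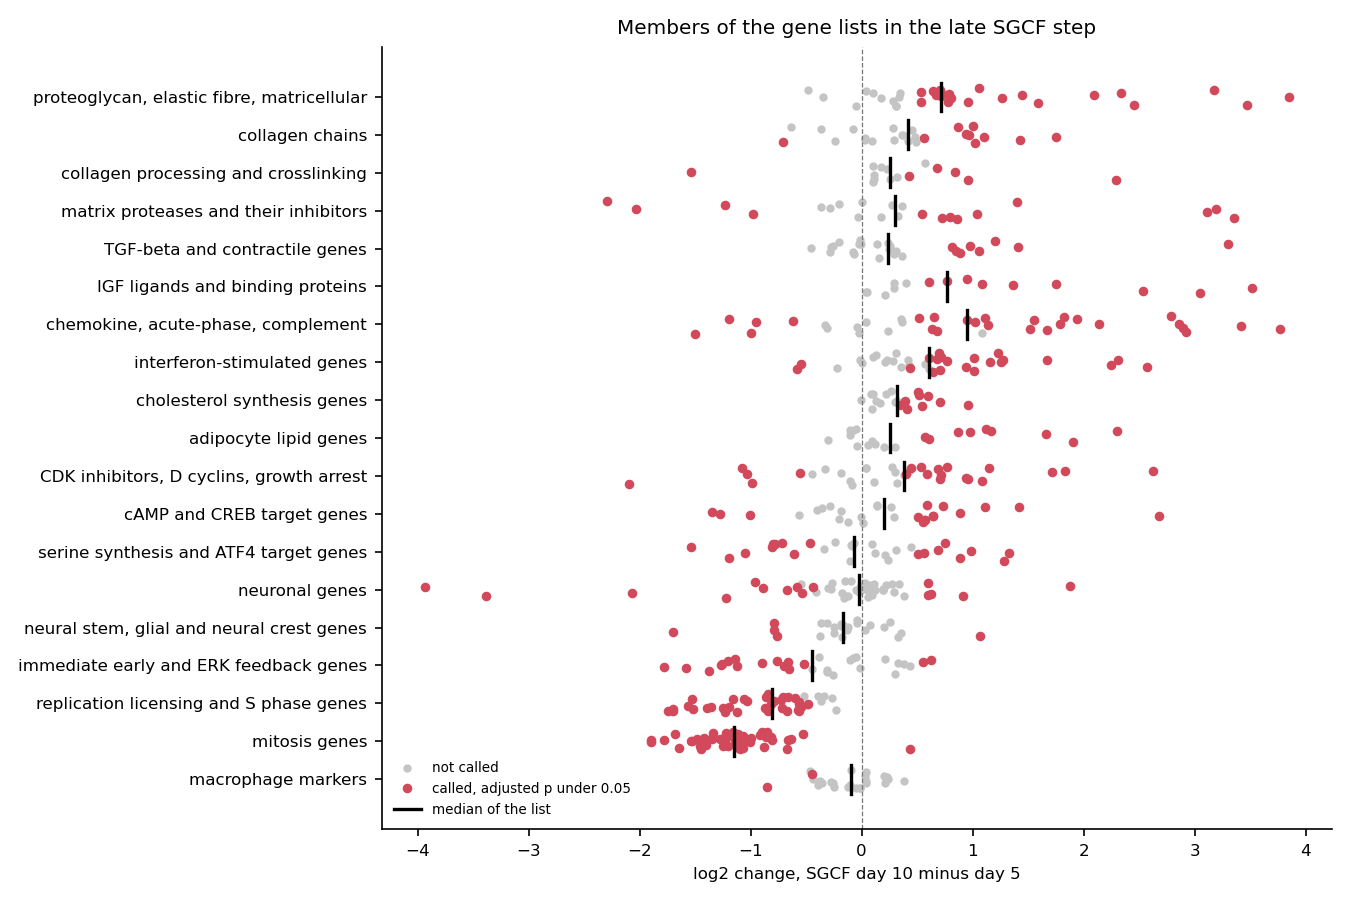
Log2 change from day 5 to day 10 under SGCF (x axis) of the tested members of 19 gene lists (rows), with called genes in red, other genes in grey and the median of each list as a black bar. The medians run from 0.95 for chemokine, acute-phase and complement genes to -1.15 for mitosis genes, and the neuronal list has a median of -0.03 with its lowest member at -3.93.

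Cell division genes fell at day 10. Of 50 tested mitosis genes, 49 fell and 1 rose, with a median of -1.15. Of 40 genes of replication licensing and S phase, 33 fell and the other 7 were not called, with a median of -0.81. Fewer than 33 fell with any of the 4 arrays left out. Over all genes tested, 9.97% were called lower. Melk, a kinase of dividing cells, fell by 1.90 ± 0.18, Birc5, the survivin subunit of the chromosomal passenger complex, by 1.90 ± 0.18, and Bub1, a kinase of the spindle checkpoint, by 1.78 ± 0.21. Mki67, the gene of the proliferation antigen Ki-67, had levels of 7.92 and 7.41 at day 10 and 8.71 and 8.80 at day 5 and fell by 1.09 ± 0.24 (adjusted p = 0.00642; without day 10 replicate 2, -0.83, adjusted p = 0.0735). Cdk1, the kinase that starts mitosis, had levels of 9.32 and 9.05 at day 10 and 10.41 and 10.10 at day 5 and fell by 1.07 ± 0.16 (adjusted p = 0.000642). In both genes the higher day 10 array lay below the lower day 5 array, as at every gene called lower. The member that rose was Pttg1, the gene of securin, which holds back chromosome separation, with 0.43 ± 0.11 (adjusted p = 0.0147). That call was lost with any of the 4 arrays left out , with the 6 SGCF arrays fitted alone, with median centring (0.27, adjusted p = 0.152) and with its probe sets averaged (0.11, adjusted p = 0.579).

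Among replication genes Rrm2, the ribonucleotide reductase subunit that limits the supply of deoxynucleotides, fell by 1.75 ± 0.15 (adjusted p = 1e-05). Ccne2, the cyclin that drives entry into S phase, fell by 1.70 ± 0.20, and Tk1, a thymidine kinase, by 1.56 ± 0.18. The licensing genes Mcm5 and Cdc6, which load the replicative helicase onto DNA, fell by 1.70 ± 0.15 and 1.52 ± 0.18. Pcna, the sliding clamp of DNA polymerase, fell by 0.57 ± 0.11. E2f1, a transcription factor of this programme, had levels of 7.26 and 7.37 at day 10 and 7.85 and 7.32 at day 5, which overlapped, and a change of -0.26 ± 0.19 (adjusted p = 0.347). E2f8, a repressor of the same family, had levels of 6.36 and 5.84 at day 10 and 8.01 and 8.38 at day 5 and fell by 2.09 ± 0.20 (adjusted p = 2.28e-05).

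The promoters of the members that fell are printed because the 2 lists hold different known control elements. Mitosis genes are controlled through a cell cycle gene homology region (CHR, letters TTTGAA) near the start, often downstream of CCAAT boxes bound by NF-Y. Replication genes are controlled through E2F sites, searched as TTTCCCGC, TTTCGCGC, TTTGCCGC or TTTGGCGC. Matches were counted on both strands in RefSeq windows of 250 bases before to 50 after each start (build GRCm38.p6), which existed for 8565 of the 10674 genes tested. The CHR letters stood in 28 of 41 mitosis promoters (68.3%), in 17.1% of 35 replication promoters and in 14.3% over all genes tested. CHR and CCAAT stood together in 61% of mitosis promoters and 6.88% over all genes tested. CCAAT alone is common, with 70.7% of mitosis promoters and 42.5% over all genes tested. An E2F match stood in 13 of 35 replication promoters (37.1%), in 9.76% of mitosis promoters and in 4.48% over all genes tested. A match is a stretch of letters and not a measured binding site. The following 200-base stretches run 5′ to 3′ from 170 bases before to 30 after the start. They belong to members that fell the most among those with 1 annotated window and the letters in it, with 1 chromosome left out of the choice. In the first 3, capitals mark CHR and CCAAT letters on either strand, and in Mcm5 and Cdc6 they mark E2F letters.
Ube2c, plus strand of chr2:164769759-164769958: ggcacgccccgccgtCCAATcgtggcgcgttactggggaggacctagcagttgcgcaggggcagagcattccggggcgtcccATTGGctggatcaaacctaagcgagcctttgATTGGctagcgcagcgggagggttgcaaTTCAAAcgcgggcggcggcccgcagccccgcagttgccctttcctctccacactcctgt
Cenpa, plus strand of chr5:30666716-30666915: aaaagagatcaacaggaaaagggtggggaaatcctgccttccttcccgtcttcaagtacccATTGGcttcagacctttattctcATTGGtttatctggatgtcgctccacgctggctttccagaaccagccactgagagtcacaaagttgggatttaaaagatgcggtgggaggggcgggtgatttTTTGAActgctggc
Kif22, minus strand of chr7:127042391-127042590: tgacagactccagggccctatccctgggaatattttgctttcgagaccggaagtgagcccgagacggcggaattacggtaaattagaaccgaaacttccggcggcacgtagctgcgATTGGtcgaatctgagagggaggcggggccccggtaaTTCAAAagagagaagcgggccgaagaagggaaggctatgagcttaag
Mcm5, plus strand of chr8:75109339-75109538: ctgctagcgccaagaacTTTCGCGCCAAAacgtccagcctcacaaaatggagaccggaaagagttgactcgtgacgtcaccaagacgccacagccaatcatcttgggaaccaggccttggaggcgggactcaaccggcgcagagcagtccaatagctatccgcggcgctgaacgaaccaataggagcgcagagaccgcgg
Cdc6, plus strand of chr11:98907981-98908180: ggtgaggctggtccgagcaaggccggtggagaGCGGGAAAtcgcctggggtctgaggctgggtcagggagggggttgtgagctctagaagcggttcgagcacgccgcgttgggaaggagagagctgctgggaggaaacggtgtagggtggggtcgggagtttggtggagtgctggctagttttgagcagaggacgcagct
The CHR letters begin 29 bases before the start in Ube2c, 17 before it in Kif22 and 17 after it in Cenpa. In Mcm5, 2 overlapping E2F matches begin 153 and 149 bases before the start. Ube2c, whose enzyme tags cyclins for destruction, fell by 1.53 ± 0.17, Cenpa, the histone of centromeres, by 1.48 ± 0.17 and Kif22, a chromosome-arm kinesin, by 1.45 ± 0.19.

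Inhibitors of the cell cycle were listed with the D cyclins, which drive it, and with growth arrest genes. Of 33 tested cyclin-dependent kinase inhibitors, D cyclins and growth arrest genes, 15 rose, 5 fell and 13 were not called, with a median of 0.38. These counts are 45.5% higher and 15.2% lower, beside 11.7% and 9.97% over all genes tested. With each of the 4 arrays left out in turn, 9 to 11 rose and 3 to 4 fell. Cdkn1c, which encodes the kinase inhibitor p57, had levels of 12.32 and 12.24 at day 10 and 9.66 and 9.65 at day 5, a 6.17-fold rise (2.62 ± 0.11, adjusted p = 5.44e-08). Cdkn1b, the gene of the inhibitor p27, rose by 0.70 ± 0.14 but was not called with its probe sets averaged (0.25, adjusted p = 0.229), whereas Cdkn1a (p21) changed by 0.28 ± 0.15 (adjusted p = 0.235) and Cdkn2a, the senescence locus, by 0.30 ± 0.13 (adjusted p = 0.134). Klf9, a transcription factor that glucocorticoids induce, rose by 1.83 ± 0.19, Gas6, a ligand of TAM receptors made by resting fibroblasts, by 1.72 ± 0.18, and Foxo1 by 1.15 ± 0.21. Ccnd1, the cyclin D1 gene that mitogens induce, had levels of 11.57 and 11.08 at day 10 and 12.30 and 12.51 at day 5 and fell by 1.08 ± 0.20. Fewer dividing cells and less of these transcripts per cell cannot be told apart in RNA from whole cultures, and the same holds for every cell type or state named here.

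**Figure D3:**
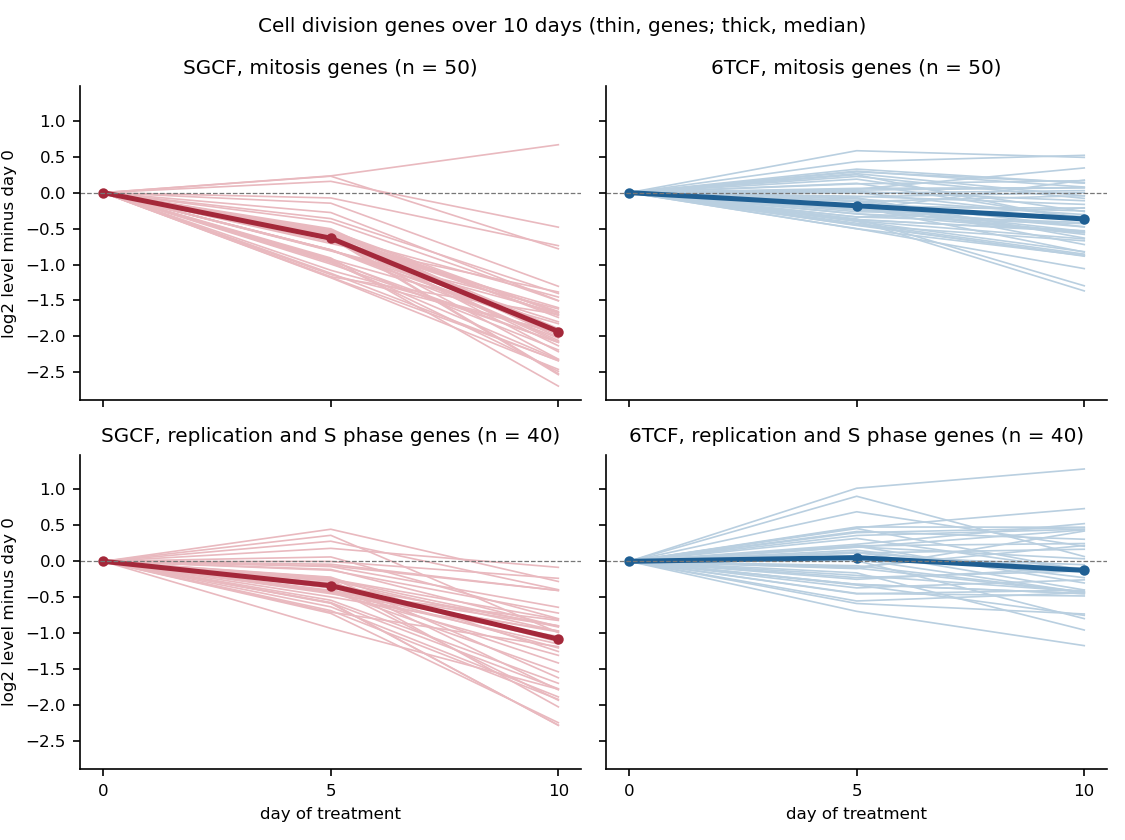
Group means of mitosis genes (top, n = 50) and of replication and S phase genes (bottom, n = 40) minus their day 0 value (y axis, log2) against the day of treatment (x axis) under SGCF (left) and 6TCF (right). Thin lines are genes and the thick line is their median, which under SGCF reaches -1.93 for mitosis genes and -1.08 for replication genes by day 10.

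Neuronal and neural progenitor genes divided at day 10, with a few large falls. Of 47 tested neuronal genes, 10 fell, 5 rose and 32 were not called, with a median of -0.03. These counts are 21.3% lower and 10.6% higher, beside 9.97% and 11.7% over all genes tested, and 7 to 8 fell and 1 to 4 rose with each of the 4 arrays left out in turn. Nptx1 and Nefl led the falls. Nefm, the medium neurofilament chain, had levels of 6.99 and 7.17 at day 10 and 9.07 and 9.22 at day 5 and fell by 2.07 ± 0.17 (adjusted p = 7.09e-06). Gap43, a protein of growing axons, had levels of 11.41 and 11.00 at day 10 and 12.47 and 12.39 at day 5 and fell by 1.22 ± 0.15 (adjusted p = 0.000131). In both genes the arrays of the 2 days did not overlap, as at every called gene. Snap25, part of the synaptic vesicle fusion machinery, fell by 0.96 ± 0.25, a call lost without day 10 replicate 2 (-0.77, adjusted p = 0.133) or day 5 replicate 1 (-0.76, adjusted p = 0.136). Gria1, an AMPA glutamate receptor subunit, went against them with levels of 8.62 and 8.84 at day 10 and 6.81 and 6.88 at day 5 (1.88 ± 0.15, adjusted p = 6.04e-06). The neuron-specific tubulin gene Tubb3 changed by -0.12 ± 0.24 (adjusted p = 0.763) and Stmn2, a regulator of axonal microtubules, by -0.15 ± 0.13 (adjusted p = 0.461), and neither was called.

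Of 24 genes of neural stem cells, glia and neural crest, 4 fell, 1 rose and 19 were not called, with a median of -0.17. These counts are 16.7% lower and 4.17% higher, beside 9.97% and 11.7% over all genes tested. Sox2, the transcription factor of neural progenitors, had levels of 5.75 and 5.81 at day 10 and 7.11 and 7.85 at day 5 and fell by 1.70 ± 0.22 (adjusted p = 0.000192). Its relative Sox11 fell by 0.79 ± 0.15, the progenitor filament gene Nes, nestin, by 0.76 ± 0.16 and the neural factor gene Zic1 by 0.79 ± 0.19. Zic1 was not called without day 10 replicate 1 (-0.54, adjusted p = 0.0998) or day 5 replicate 2 (-0.70, adjusted p = 0.0719). Slc1a3, a glial glutamate transporter, rose by 1.07 ± 0.24 and was not called without day 5 replicate 2 (0.96, adjusted p = 0.0547) or with its probe sets averaged (0.43, adjusted p = 0.0511). Pax6 and Sox10, a neural and a crest factor, changed by -0.36 ± 0.23 and -0.13 ± 0.13 without a call.

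Many complement and acute-phase genes rose. Of 35 tested chemokine, acute-phase and complement genes, 21 rose, 5 fell (3 to 5 with each of the 4 arrays left out in turn) and 9 were not called, with a median of 0.95. With all arrays kept, 60% were higher and 14.3% lower, beside 11.7% and 9.97% over all genes tested. Fewer than 21 rose with any of the 4 arrays left out. C1s1 had levels of 9.93 and 10.32 at day 10 and 6.39 and 6.33 at day 5 (adjusted p = 5.44e-08), and C1ra had 9.23 and 9.67 at day 10 and 6.01 and 6.05 at day 5 (adjusted p = 1.11e-07). The 2 genes lie next to each other on chromosome 6 in RefSeq, beside the close copies C1rb and C1s2, which these probe sets were not shown to tell apart. Serping1, the inhibitor of both proteases, had levels of 10.53 and 10.77 at day 10 and 7.70 and 7.88 at day 5 and rose by 2.86 ± 0.16, so enzyme and inhibitor genes rose on the same arrays. Saa3, an acute-phase serum amyloid protein, rose by 2.89 ± 0.25, Lcn2, an iron-scavenging lipocalin, by 2.79 ± 0.11, the haemoglobin-binding haptoglobin gene Hp by 2.14 ± 0.19 and Cp, the copper ferroxidase ceruloplasmin, by 1.82 ± 0.13. Lcn2 had levels of 7.68 and 7.76 at day 10 and 4.87 and 5.00 at day 5.

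Chemokines divided by gene. Cxcl5, which attracts neutrophils, had levels of 9.34 and 10.60 at day 10, both above 7.09, the higher of the day 5 levels, and rose by 2.92 ± 0.35 (adjusted p = 0.000105), with the day 10 arrays more than a unit apart. Cxcl1, of the same class, rose by 1.78 ± 0.20, Ccl8, which attracts monocytes, by 1.94 ± 0.22, and Cxcl12, the stromal factor that retains blood stem cells, by 1.67 ± 0.19. Ccl2, the main monocyte attractant, had levels of 10.25 and 10.07 at day 10 and 11.31 and 10.90 at day 5 and fell by 0.95 ± 0.16. The prostaglandin enzyme gene Ptges fell by 1.19 ± 0.16 and the alarmin gene Il33 by 1.50 ± 0.16. Il6, the cytokine that induces acute-phase genes in liver, had levels of 6.88 and 7.41 at day 10 and 7.32 and 7.06 at day 5, which overlapped (-0.04 ± 0.22, adjusted p = 0.918).

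Interferon-stimulated genes rose more often than they fell, with 19 of 35 called higher, 2 lower (0 to 2 with each of the 4 arrays left out in turn) and 14 not called (median 0.61). With all arrays kept, 54.3% were higher and 5.71% lower, beside 11.7% and 9.97% over all genes tested. Fewer than 19 rose with any of the 4 arrays left out. The guanylate-binding and immunity-related GTPases that interferon-gamma induces led. Gbp2 had levels of 8.20 and 8.56 at day 10 and 5.61 and 6.02 at day 5 (2.57 ± 0.25, adjusted p = 2.72e-05), and Iigp1 had 8.31 and 8.56 at day 10 and 6.22 and 6.15 at day 5 (2.25 ± 0.18, adjusted p = 7.14e-06). Their groups did not overlap, as at every called gene. Gbp3 rose by 2.31 ± 0.37, Irgm2 by 1.67 ± 0.24, Igtp by 1.27 ± 0.19 and Tapbp, which loads antigen peptides, by 1.26 ± 0.15. Irf1, an interferon-induced transcription factor, rose by 1.22 ± 0.13. Ifit1 and Irf7, classic targets of type I interferon, changed by 0.23 ± 0.23 (adjusted p = 0.528) and 0.10 ± 0.14 (adjusted p = 0.681) and were not called.

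The promoters of Gbp2 and Irgm2 are printed since their list shares a known element, the interferon-stimulated response element (ISRE), searched as GAAANNGAA on both strands. It stood in 14 of 28 interferon-stimulated promoters (50%) and in 8.42% over all genes tested. Capitals mark it, 58 bases before the start in Gbp2 and 64 before it in Irgm2.
Gbp2, plus strand of chr3:142620493-142620692: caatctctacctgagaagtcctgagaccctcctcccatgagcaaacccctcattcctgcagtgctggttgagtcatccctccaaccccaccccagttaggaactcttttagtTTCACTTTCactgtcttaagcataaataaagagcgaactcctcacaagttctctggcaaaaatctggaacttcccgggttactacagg
Irgm2, plus strand of chr11:58214807-58215006: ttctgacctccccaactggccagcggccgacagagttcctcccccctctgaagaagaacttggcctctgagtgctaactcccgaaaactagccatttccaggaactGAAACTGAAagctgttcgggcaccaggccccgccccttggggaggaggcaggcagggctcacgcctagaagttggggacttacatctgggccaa

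Macrophages also make complement, chemokines and interferon-stimulated proteins, so their markers are given beside these genes. Of 25 tested macrophage markers 2 fell (0 to 4 with each of the 4 arrays left out in turn) and the other 23 were not called, with a median of -0.10. With all arrays kept, 8% of the markers were lower, beside 9.97% over all genes tested. The summed level of the markers on the linear scale was 8913 to 9972 at day 0, 1439.8 to 1728 at day 5 and 1396 to 1443 at day 10. The defining marker Adgre1 had levels of 5.54 and 5.47 at day 10 and 5.38 and 5.23 at day 5, and Csf1r, the receptor that keeps macrophages alive, had 6.66 and 6.58 at day 10 and 6.56 and 6.61 at day 5. Neither was called. The part of macrophages in the rise of complement and interferon-stimulated genes was not tested.

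Genes of insulin-like growth factors (IGFs) rose or were not called. IGF ligands signal for growth and survival, and their binding proteins hold, carry or release them. Of 15 tested, 9 rose (60%, beside 11.7% over all genes tested) and 6 were not called, with a median of 0.77. Igf1 had levels of 9.28 and 9.37 at day 10 and 5.98 and 5.64 at day 5, an 11.4-fold rise (3.52 ± 0.15, adjusted p = 5.44e-08). Igf2, the fetal ligand, rose by 1.09 ± 0.20. The binding protein gene Igfbp5 had levels of 11.81 and 11.73 at day 10 and 8.50 and 8.96 at day 5 (3.05 ± 0.21, adjusted p = 2.32e-06), and Igfbp4 had 12.02 and 12.20 at day 10 and 9.41 and 9.74 at day 5 (2.53 ± 0.15, adjusted p = 7.55e-07). In these ligand and binding protein genes all day 10 arrays lay above all day 5 arrays, as at every gene called higher. Igfbp3 rose by 1.75 ± 0.14 and Igfbp7 by 1.36 ± 0.13.

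Immediate early genes and feedback genes of ERK signalling, a pathway that basic fibroblast growth factor engages, fell more often than they rose. Of 31 tested, 14 fell, 2 rose (1 with each of the 4 arrays left out in turn) and 15 were not called, with a median of -0.45. With all arrays kept, 45.2% were lower and 6.45% higher, beside 9.97% and 11.7% over all genes tested. Fewer than 14 fell with any of the 4 arrays left out. Dusp6, the phosphatase that switches off ERK, had levels of 10.64 and 10.09 at day 10 and 11.97 and 11.94 at day 5 and fell by 1.59 ± 0.20 (adjusted p = 0.000175). The related phosphatase gene Dusp9, outside the list, fell by 2.19 ± 0.19. Hmga2, a chromatin protein of growing embryonic cells, fell by 1.78 ± 0.20, the EGF-family ligand Hbegf by 1.38 ± 0.24, and the transcription factor genes Fosl1, Etv4, Myc and Jun by 1.27 ± 0.17, 1.26 ± 0.18, 1.20 ± 0.14 and 1.14 ± 0.19. Fos, an immediate early gene, went the other way with 0.55 ± 0.14 (adjusted p = 0.015), a call lost with any of the 4 arrays left out, and Egr1, of the same kind, changed by -0.26 ± 0.23 (adjusted p = 0.459).

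Targets of cAMP and CREB rose more often than they fell, with 11 of 28 higher, 3 lower and 14 not called (median 0.20), or 6 to 10 higher with each of the 4 arrays left out in turn. With all arrays kept, 39.3% were higher and 10.7% lower, beside 11.7% and 9.97% over all genes tested. Dio2, whose enzyme activates thyroid hormone, had levels of 10.89 and 10.95 at day 10 and 8.21 and 8.27 at day 5 (2.68 ± 0.17, adjusted p = 1.13e-06). Ppargc1a, the coactivator of mitochondrial genes, rose by 1.41 ± 0.24, and the CEBP factor gene Cebpd by 1.11 ± 0.22 (with its probe sets averaged, 0.71, adjusted p = 0.0624). Stc1, the secreted stanniocalcin, fell by 1.34 ± 0.16, and Cited2, a transcriptional cofactor, by 1.27 ± 0.12. Crem, the cAMP-responsive modulator itself, changed by -0.40 ± 0.18 (adjusted p = 0.127).

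Wnt and bone morphogenetic protein (BMP) genes divided. Called higher and lower were 27.6% and 20.7% of the Wnt list and 19.2% and 15.4% of the BMP list, beside 11.7% and 9.97% over all genes tested. Of 29 Wnt/beta-catenin targets, 8 rose, 6 fell and 15 were not called, with 4 to 7 and 3 to 6 when each of the 4 arrays was left out in turn. Axin2, a feedback inhibitor and common readout of the pathway, rose by 0.73 ± 0.13 but was not called with its probe sets averaged (0.33, adjusted p = 0.07). The target gene Ccn4, a matricellular protein, rose by 0.88 ± 0.14, while Myc and Ccnd1, which other growth signals also induce, fell. Of 26 BMP ligands and SMAD feedback genes, 5 rose, 4 fell and 17 were not called, with 3 to 4 and 2 to 3 when each of the 4 arrays was left out in turn. The ligand gene Bmp2 had levels of 10.56 and 10.34 at day 10 and 11.59 and 11.99 at day 5 and fell by 1.34 ± 0.26 (adjusted p = 0.00269). Bmp4, a close relative, had levels of 9.29 and 9.31 at day 10 and 7.97 and 7.97 at day 5 and rose by 1.33 ± 0.12 (adjusted p = 1.19e-05), so the 2 ligand genes moved in opposite directions. Id1, a direct BMP target, changed by -0.25 ± 0.12 (adjusted p = 0.179; with median centring, -0.44, adjusted p = 0.0294), and Id3 rose by 0.54 ± 0.11.

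Metabolic genes showed smaller changes in several groups. Of 19 cholesterol synthesis genes 9 rose and 10 were not called (median 0.32), and 3 to 4 rose with each of the 4 arrays left out in turn. With all arrays kept, 47.4% of the cholesterol genes rose, beside 11.7% over all genes tested. The rises were led by the demethylase gene Cyp51 (0.96 ± 0.14) and by Hmgcs1, which makes the precursor of mevalonate (0.70 ± 0.12). Of 20 adipocyte lipid genes 9 rose (45%, beside 11.7% over all genes tested) and 11 were not called (median 0.25). Fewer than 9 rose with any of the 4 arrays left out. Adipoq, the fat cell hormone adiponectin, had levels of 6.36 and 6.97 at day 10 and 4.63 and 4.90 at day 5 (1.90 ± 0.18, adjusted p = 2.05e-05). Car3, a carbonic anhydrase abundant in fat, rose by 2.30 ± 0.16, Lpl, the lipase that takes up blood lipid, by 1.66 ± 0.16, and the fatty acid carrier gene Fabp4 by 1.12 ± 0.16. Pparg, the transcription factor of fat cell formation, rose by 0.87 ± 0.22, a call lost without day 10 replicate 2 (0.81, adjusted p = 0.0918), without day 5 replicate 1 (0.43, adjusted p = 0.128) and with the 6 or the 4 SGCF arrays fitted alone. Of 29 serine synthesis and ATF4 target genes 8 rose (27.6%), 9 fell (31%) and 12 were not called, beside 11.7% and 9.97% over all genes tested. Fewer than 9 fell with any of the 4 arrays left out. Within this list the serine pathway enzymes fell, Phgdh by 1.54 ± 0.13 and Psat1 by 1.20 ± 0.12, as did the mitochondrial folate enzyme Mthfd2 by 1.05 ± 0.13, while the stress-response gene Nupr1 and the amino acid transporter gene Slc1a4 rose by 1.33 ± 0.13 and 1.29 ± 0.17. Atf4 itself changed by 0.21 ± 0.13 (adjusted p = 0.287).

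Of 31 NRF2 antioxidant and metallothionein genes 9 rose, 7 fell and 15 were not called, with 5 to 6 and 4 to 5 when each of the 4 arrays was left out in turn. Nqo1, a quinone reductase often used as an NRF2 readout, fell by 1.07 ± 0.20, whereas the haem oxygenase gene Hmox1 rose by 0.96 ± 0.16 and Sod2, the mitochondrial superoxide dismutase induced by inflammatory signals, by 1.09 ± 0.12. Glycolysis and hypoxia genes had 5 rises (17.9%) and 2 falls (7.14%) in 28, beside 11.7% and 9.97% over all genes tested. The falls were called in none of the fits with 1 of the 4 arrays left out, and some of these fits lost rises. Endoplasmic reticulum chaperones held few calls, with 2 rises in 25 (8%) and the rest not called, and rises were lost in some of the same fits. The chaperone gene Hspa5 had levels of 12.96 and 12.80 at day 10 and 12.81 and 12.87 at day 5, which overlapped.

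Lists of other lineages were set beside the 11.7% called higher and 9.97% called lower over all genes tested. Of 18 endoderm and liver genes 3 rose: Cyp7b1, which hydroxylates oxysterols and steroids (2.72 ± 0.21), Apoe, the lipid carrier (2.14 ± 0.12), and Alb, which encodes albumin (1.69 ± 0.23). Alb had levels of 8.24 and 8.68 at day 10 and 6.84 and 6.71 at day 5, while the fetal liver gene Afp changed by 0.06 ± 0.19 (adjusted p = 0.864). Of 25 skeletal muscle genes 3 fell, Chrna1 among them, and the regulators Myod1 and Myog changed by -0.04 ± 0.21 and -0.43 ± 0.46 without a call. Of 26 cardiac genes 3 rose (11.5%) and 4 fell (15.4%, or 2 to 3 falls with each of the 4 arrays left out in turn), among them the factor genes Mef2c (1.18 ± 0.17) and Gata5 (-1.33 ± 0.29; without day 5 replicate 2, -1.21, adjusted p = 0.0514). Epithelial genes had 1 rise (3.7%) and 4 falls (14.8%) in 27, or 1 to 3 falls with each array left out. Pluripotency genes had 1 fall in 16 (1 to 2 with each array left out), Klf5 (-0.84 ± 0.16). Of 31 mesenchymal transcription factors 8 rose (3 to 7 with each of the 4 arrays left out in turn) and 2 fell, with the nuclear receptor gene Nr2f1 up by 1.19 ± 0.16 and Twist2, a basic helix-loop-helix factor, down (-1.03 ± 0.16).

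Markers of other cells that such cultures can hold were set beside the same 11.7% and 9.97%. Endothelial markers had 2 rises and 2 falls in 17 (11.8% each way), or 1 to 2 rises and 1 to 2 falls with each of the 4 arrays left out in turn. Mesothelial markers had 3 rises and 3 falls in 15 (20% each way), or 2 to 3 and 1 to 4 with each array left out. Pericyte and smooth muscle markers had 3 rises (25%) and 1 fall (8.33%) in 12. Cartilage and bone markers had 1 rise in 13, Col11a1 (1.00 ± 0.23), lost without day 10 replicate 2 (0.81, adjusted p = 0.0859) or day 5 replicate 1 (0.94, adjusted p = 0.0604), and keratinocyte markers 1 fall in 14, Sprr1a (-1.47 ± 0.19). The summed mesothelial level was 11323 to 11843 at day 10 and 6259 to 6777 at day 5, a list that includes Igfbp5. Msln, the defining mesothelial gene, fell by 0.76 ± 0.14. The summed pericyte level was 2148 to 2543 at day 10 and 3448 to 3683 at day 5, while the median change of that list was -0.01. Its member Rgs5 was the 1 that fell, by 1.32 ± 0.23. The 3 members that rose, Cnn1 among them, did so by up to 0.88. The part of these cells in the changes above was not tested.

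The state at day 10 can be set beside the starting cells. Day 10 against day 0 called 2192 genes higher (20.5%) and 1952 lower (18.3%) of 10674. This comparison, the late step and the change from day 0 to day 5 share arrays, so their values stand side by side and no relation between them is computed. Ogn had levels of 10.92 and 10.95 at day 0, 7.57 and 7.78 at day 5 and 11.15 and 11.89 at day 10, and its difference of day 10 minus day 0 was 0.59 ± 0.24 (adjusted p = 0.0664), which was not called. Tgm2 had 9.46 and 8.96 at day 0, 6.22 and 5.91 at day 5 and 9.43 and 9.54 at day 10, and Igfbp5 had 12.04 and 11.34, 8.50 and 8.96 and 11.81 and 11.73 at the same days. Their differences of day 10 minus day 0 were 0.27 ± 0.16 (adjusted p = 0.21) and 0.08 ± 0.21 (adjusted p = 0.799), and neither was called. Lox had 13.22 and 12.84 at day 0, 8.83 and 9.01 at day 5 and 10.92 and 11.49 at day 10 and stood -1.82 ± 0.18 from day 0 (adjusted p = 9.14e-06). Aspn had 9.77 and 10.41 at day 0, 4.61 and 4.59 at day 5 and 7.64 and 7.90 at day 10 and stood -2.32 ± 0.38 from day 0 (adjusted p = 0.000461). Lox and Aspn were still below their starting levels at day 10, and Ccn2 stood -3.35 ± 0.13 from day 0. Kera, Tgfb2, C1s1 and Hsd11b1 ended above their starting levels, by 3.66 ± 0.15, 2.96 ± 0.14, 3.49 ± 0.16 and 4.30 ± 0.16.

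The lists differed in where they ended. The median for day 10 minus day 0 was 0.01 for proteoglycan, elastic fibre and matricellular genes (13 higher and 12 lower of 32) and -0.29 for collagen chains (7 higher, 10 lower). It was -0.97 for TGF-beta and contractile genes, of which 20 of 26 were lower at day 10 than at day 0. Mitosis genes had a median of -0.63 for day 5 minus day 0 and of -1.93 for day 10 minus day 0, with 49 of 50 lower at day 10. Complement, acute-phase and chemokine genes had 0.16 for day 5 minus day 0 and 0.91 for day 10 minus day 0. Nptx1 had levels of 5.38 and 5.34 at day 0, 10.49 and 10.54 at day 5 and 7.22 and 5.95 at day 10, and Nefl had 5.01 and 4.73, 9.85 and 10.02 and 7.03 and 6.06. Both ended above day 0, by 1.22 ± 0.32 (adjusted p = 0.00991) and 1.68 ± 0.39 (adjusted p = 0.00526). Gap43 ended 2.58 ± 0.15 above day 0, Sox2 0.88 ± 0.22 and Gria1 3.70 ± 0.15. Bmp2, which fell in the late step, had 5.73 and 4.75 at day 0, 11.59 and 11.99 at day 5 and 10.56 and 10.34 at day 10 and ended 5.21 ± 0.26 above day 0.

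**Figure D4:**
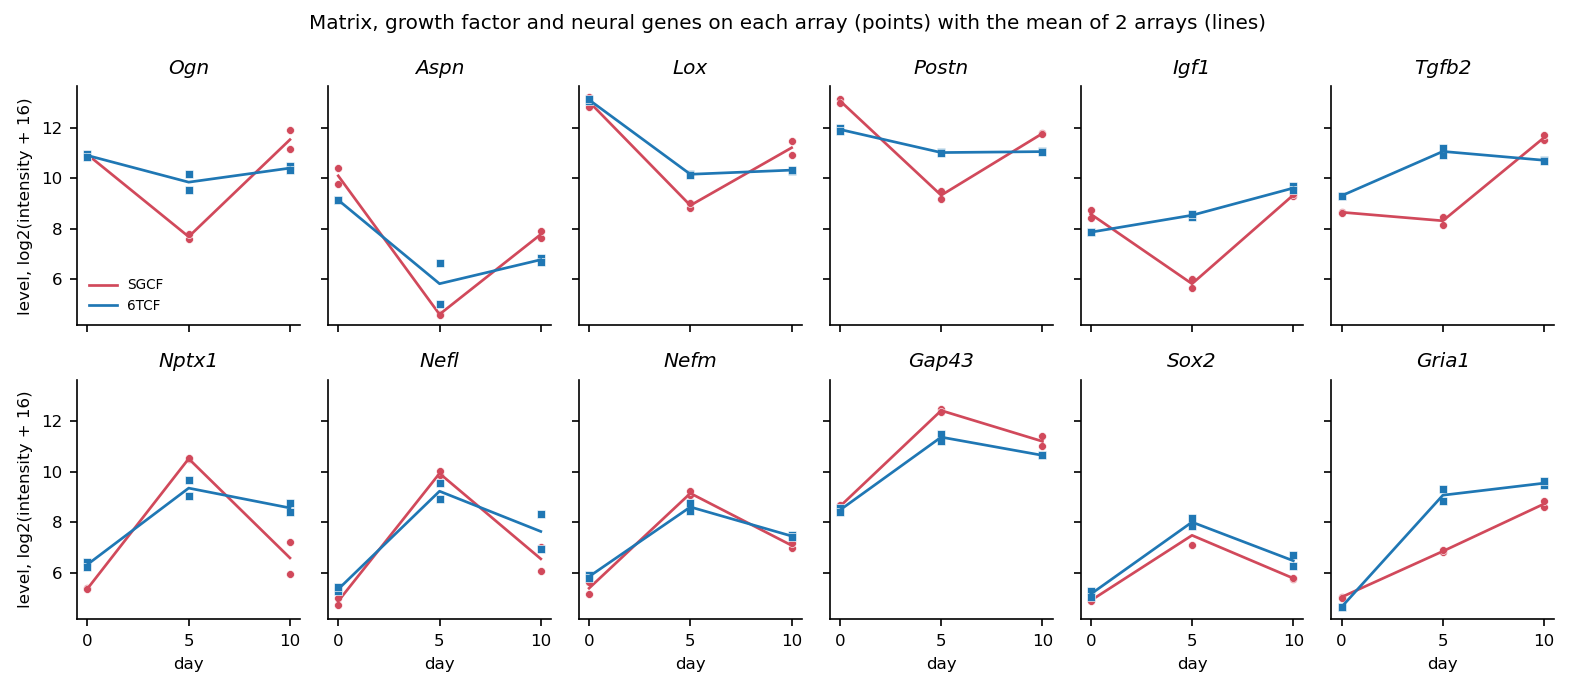
Levels (y axis, log2 of intensity plus 16) of 6 matrix and growth factor genes (top) and 6 neural genes (bottom) against the day (x axis), with each array as a point and the mean of 2 arrays as a line, SGCF in red and 6TCF in blue. Under SGCF the neurofilament and pentraxin genes peak at day 5 and stay above day 0, while Gria1 is highest at day 10.

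The step from day 5 to day 10 was also tested for a difference between SGCF and 6TCF. Under 6TCF, 928 genes (8.69%) were called higher and 760 (7.12%) lower at day 10 than at day 5. The difference between the arms, the SGCF change minus the 6TCF change, was called above 0 for 698 genes (6.54%) and below 0 for 609 (5.71%). With each of the 8 arrays of these groups left out in turn, 529 to 963 genes in place of 1307 were called for the difference, the fewest without 6TCF day 10 replicate 1. Arrays of SGCF had median intensities of 60.9 to 86.2 as deposited and those of 6TCF 102.4 to 142, so array brightness and the arm cannot be told apart. The 3' minus 5' value of actin was 0.76 and 0.88 at 6TCF day 5 and 1.04 and 1.03 at 6TCF day 10. On the SGCF arrays of these days it was 0.42 to 0.48, so it too cannot be told apart from the arm. Of the genes with a called difference and at least a 2-fold SGCF change, Tgfb2 led: the SGCF step was 3.30 ± 0.14, the 6TCF step -0.35 ± 0.14, and the difference 3.65 ± 0.20 (adjusted p = 3.35e-06). In the 6TCF arm Tgfb2 had levels of 10.72 and 10.69 at day 10 and 10.92 and 11.20 at day 5. Inmt, an indole methyltransferase gene, had 2.50 ± 0.22 in the SGCF step and -0.97 ± 0.22 in the 6TCF step (difference 3.47 ± 0.31). Cdkn1c had 2.62 ± 0.11 in the SGCF step and -0.72 ± 0.11 in the 6TCF step (difference 3.34 ± 0.16, adjusted p = 1.23e-06), so this kinase inhibitor gene rose in the first late step and fell in the second. Its mean levels under 6TCF were 9.51 at day 0, 11.53 at day 5 and 10.81 at day 10, so it ended above its start there too. At the same 6TCF days Tgfb2 had means of 9.30, 11.06 and 10.71, and Inmt had 6.71, 9.60 and 8.62. The others with the largest positive differences were Ogn (3.29 ± 0.33), Mmp13 (3.15 ± 0.20), Igfbp5 (3.04 ± 0.30), Tgm2 (2.94 ± 0.23) and Adamts1 (2.94 ± 0.30).

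On the negative side, Nptx1 changed by -3.93 ± 0.32 in the SGCF step and -0.79 ± 0.32 in the 6TCF step, with a difference of -3.15 ± 0.45 (adjusted p = 0.00158). Grp, which encodes gastrin-releasing peptide, changed by -1.77 ± 0.26 in the SGCF step and 0.94 ± 0.26 in the 6TCF step (difference -2.71 ± 0.36). Ska1, a protein that attaches spindle fibres to chromosomes, changed by -1.93 ± 0.34 in the SGCF step and 0.51 ± 0.34 in the 6TCF step (difference -2.44 ± 0.47). Serpinb2 (-2.70 ± 0.34), Chrna1 (-2.55 ± 0.36) and Prkg2 (-2.16 ± 0.22) also had negative differences. The muscle genes Mylpf (-3.20 ± 0.91), a myosin light chain, and Tnni1 (-2.39 ± 0.65), a troponin, did too, but neither was called in the SGCF step itself (adjusted p = 0.3 and 0.143). Both lost the call for the difference without either SGCF day 10 array, SGCF day 5 replicate 1, 6TCF day 10 replicate 2 or either 6TCF day 5 array. In those fits Mylpf differed by -3.51 to -1.92 (adjusted p = 0.07 to 0.154) and Tnni1 by -2.63 to -1.46 (adjusted p = 0.0529 to 0.13). The neurofilament gene Nefl had -3.39 ± 0.39 in the SGCF step and -1.60 ± 0.39 in the 6TCF step, a difference of -1.79 ± 0.56 (adjusted p = 0.0561) that was not called.

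**Figure D5:**
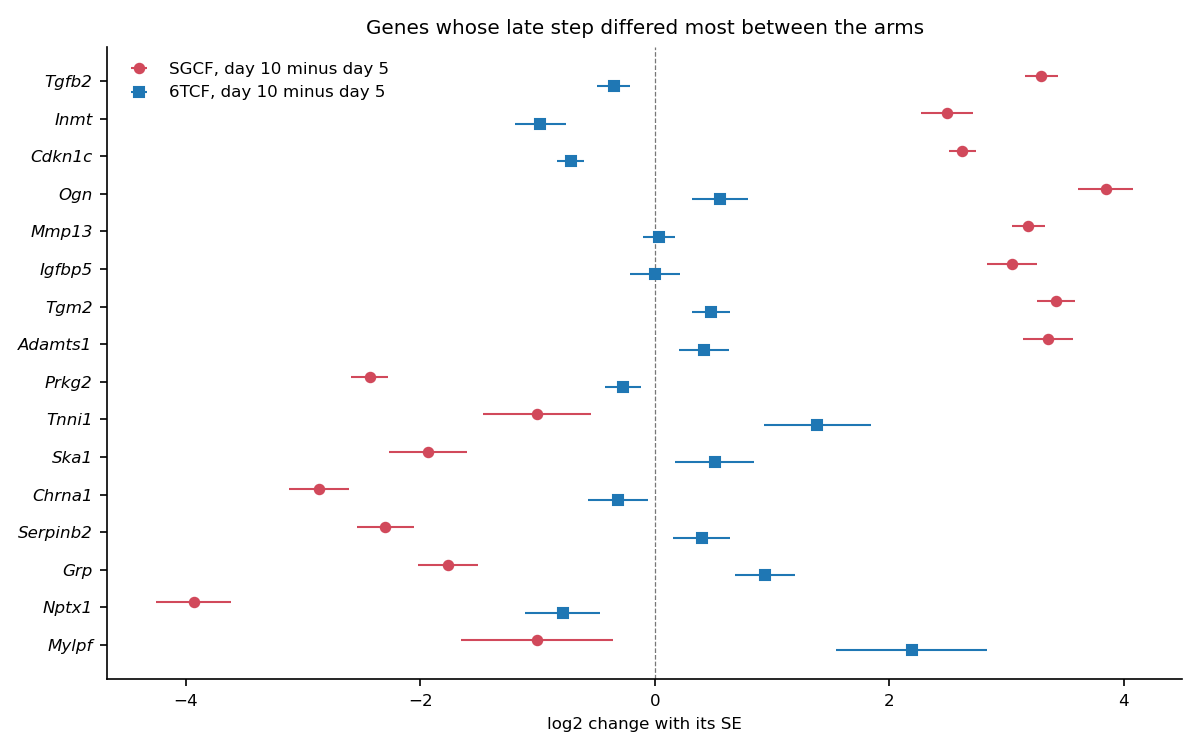
Log2 change from day 5 to day 10 (x axis) with its SE under SGCF (circles) and 6TCF (squares) for 16 genes, the 8 largest called differences each way among genes changed at least 2-fold under SGCF. The difference of SGCF minus 6TCF runs from 3.65 for Tgfb2 at the top to -3.20 for Mylpf at the bottom. Only genes with a called difference were eligible, so the bars of the circle and the square do not meet in any row.

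By list, differences were called for many division, matrix and IGF genes. The counts below stand beside 6.54% of all genes tested with a called difference above 0 and 5.71% below. Of the 50 mitosis genes 35 had a called difference below 0 and 1 above, and the list's median change was -1.15 under SGCF and -0.22 under 6TCF. Of the 40 replication genes 22 had one below 0, with medians of -0.81 under SGCF and -0.13 under 6TCF. Above 0 were 16 of 32 proteoglycan, elastic fibre and matricellular genes (medians 0.71 under SGCF and 0.02 under 6TCF) and 11 of 25 collagen chains (0.42 under SGCF and -0.24 under 6TCF). The same held for 12 of 26 TGF-beta and contractile genes (0.24 under SGCF and -0.53 under 6TCF) and 9 of 15 IGF genes (0.77 under SGCF and 0.00 under 6TCF). Interferon-stimulated genes had medians of 0.61 under SGCF and 0.60 under 6TCF, with 4 called differences above 0 and 2 below in 35. Immediate early and ERK feedback genes had medians of -0.45 under SGCF and -0.38 under 6TCF, with 2 differences above 0 and 1 below in 31. Macrophage markers had medians of -0.10 under SGCF and 0.25 under 6TCF, where 11 of 25 rose, and 8 differences were below 0.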

How the data were processed

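RNA of MEF cultures was hybridised to 12 Affymetrix arrays, 2 for each of 6 groups taken from the sample titles. The authors deposited 1 intensity per probe set and array on a linear scale. RMA, limma and MAS5 appear in the submitters' processing notes, and no source used here says which of them made these values.

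Of 22690 probe sets, 64 are array controls, 20380 carry 1 gene symbol, 691 several and 1555 are unnamed here. GEO's platform annotation gave the symbols, and 20351 probe sets matched current symbols by Entrez number. Values were quantile normalized over the 12 arrays as log2 of intensity plus 16, which understates changes of dim genes. For each of 12393 genes the probe set of highest mean was kept. The 10674 genes whose highest group mean exceeded the 25th percentile (5.25) were tested with limma 3.58.1 in R 4.3.3, fitting 6 group means (residual degrees of freedom 6, prior 5.75). Calls needed a Benjamini-Hochberg adjusted p under 0.05, and were checked on simulated data.

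The members and the 36 gene lists were chosen with earlier results of these data known. Genes named are the 15 largest called rises and falls of at least 2-fold without overlap between the groups, up to 6 called members a list with the genes that define it, and 8 arm differences each way. Others were named after their values were seen. Alternatives changed the normalization, pseudocount, filter, probe set choice, arrays fitted and variance model, added the replicate number as a block, or left out an array.

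The numbers were not shown to pair the samples: deviations of same-numbered SGCF arrays correlated at -0.28 between days 0 and 5, 0.11 between days 0 and 10 and -0.01 between days 5 and 10.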

Additional observations from a re-analysis of the deposited data

Results flagged for a closer look

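The step from day 5 to day 10 differed between SGCF and 6TCF for 1307 genes, by the interaction term of the limma fit at an adjusted p under 0.05. The difference, SGCF change minus 6TCF change, was above 0 for 698 of them and below 0 for 609. Among the named genes it was above 0 for Tgfb2 (3.65), Inmt (3.47), Cdkn1c (3.34), Ogn (3.29), Mmp13 (3.15), Igfbp5 (3.04), Tgm2 (2.94) and Adamts1 (2.94). It was below 0 for Mylpf (-3.20), Nptx1 (-3.15), Grp (-2.71), Serpinb2 (-2.70), Chrna1 (-2.55), Ska1 (-2.44), Tnni1 (-2.39) and Prkg2 (-2.16). These are log2 differences of 2 changes, each from 2 arrays against 2. The 6TCF arrays were the brighter ones and at days 5 and 10 had the higher 3' minus 5' actin values. The part of either in these differences was not tested.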

How the results depend on the processing

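No named gene that was called in the late step changed direction under any alternative run. For named genes that were not called, changes of direction were not counted. Of 4022 recomputed values, 3843 stayed on their side of the threshold, 170 lost the call and 9 gained it. Of 272 recomputed arm differences of named genes none changed direction and 15 lost the call, each of Mylpf or Tnni1. With log2 of intensity plus 64, genes changed at least 2-fold were 206 higher and 116 lower. A fit on the 6 SGCF arrays alone called 1489 genes, 646 of them lower. With the replicate block, 2019 genes were called in the late step (1111 higher, 908 lower), 961 for the difference between the arms and 3866 for day 10 against day 0, all within 1.5 times the counts without it. With each array left out in turn, the late step had 1370 to 1634 genes called, 776 to 894 higher and 594 to 740 lower, with 320 to 374 higher and 175 to 260 lower at least 2-fold. The difference between the arms had 529 to 963 called, 292 to 517 above 0 and 232 to 446 below. Day 10 against day 0 had 3074 to 4404 called, 1642 to 2376 higher and 1425 to 2028 lower. Leaving out an array leaves a group of 1, which is assumed to vary like the other groups. With median centring the arms differed for 481 genes above 0 and 799 below, and day 10 against day 0 had 1722 higher and 2135 lower. List medians changed sign under at least 1 alternative for 10 of the 36 lists: neuronal, Wnt, BMP, serine and ATF4, endoderm and liver, pluripotency, macrophage, mesothelial, cartilage and bone, and pericyte genes.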
